A study of Mus musculus with 6 samples.

Results

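The genes described here encode surface receptors by which blood stem cells and early progenitors are recognised and sorted. Of 9 receptor genes listed, 8 had a probe set with their symbol as its only name, out of 19938 genes measured: Slamf1, Cd48, Cd34, Procr, Tek, Tie1, Kit and Flt3. Each of the 8 was read by 1 probe set, and Ly6a, the gene of Sca-1, is not analysed here. Expression was measured on 6 whole-transcript arrays of sorted mouse bone marrow cells, with 3 groups of 2 biological replicates. Marrow from C57BL/6 donors treated with fluorouracil was infected with a retrovirus and given to recipients of the same strain, aged 8 weeks and wild type by the labels. The virus carried only GFP (vector), GFP with BCR-ABL, or GFP with both BCR-ABL and Blk (BCR-ABL-Blk). BCR-ABL is an oncogenic tyrosine kinase found in chronic myeloid leukemia, and Blk is a tyrosine kinase of the Src family. After 14 days, cells were sorted that carried GFP, c-Kit and Sca-1 and lacked lineage markers, a gate known as LSK. Expression is driven by the virus in whichever cells it entered, and the number of mice behind each replicate is not stated in the labels. The p-values set each difference against the spread between these replicates, moderated by the spread over all genes.

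The LSK gate holds stem cells and multipotent progenitors, and the receptors divide it further. SLAMF1 (CD150) is used to mark long-term stem cells within this gate but is not confined to them. CD48, another protein of the SLAM family, appears on multipotent and lineage-restricted progenitors. CD34, a sialomucin, and the cytokine receptor FLT3 are low on the most primitive mouse stem cells and are gained by multipotent progenitors. TEK (Tie2), its relative TIE1 and PROCR, the endothelial protein C receptor, are shared by stem cells and endothelium. KIT is the receptor of stem cell factor, on which stem cells, progenitors and mast cells depend.

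**Figure D1:**
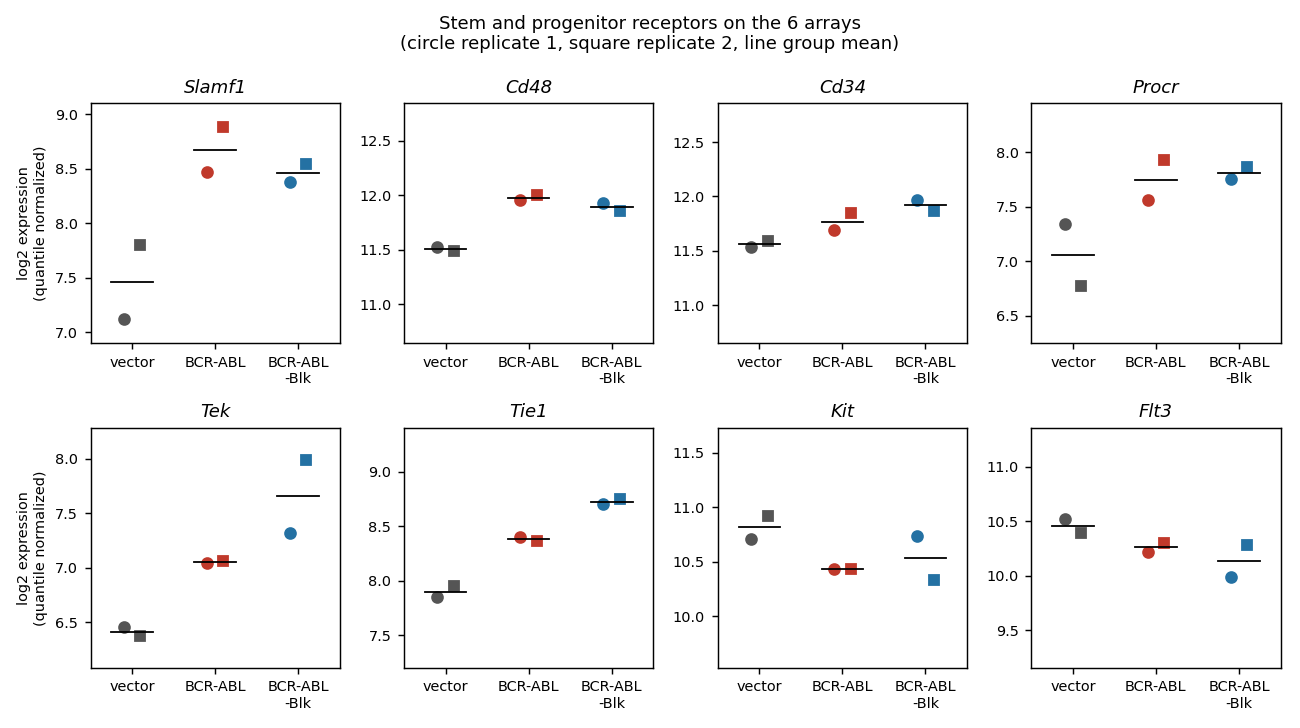
Quantile-normalized log2 expression of the 8 receptor genes (vertical axes) on the 6 arrays, by group; the circle is replicate 1, the square replicate 2 and the line the mean of 2. For Slamf1, Cd48, Cd34, Procr, Tek and Tie1 both vector arrays lie below the 4 arrays with BCR-ABL, and Tek and Tie1 step up again in BCR-ABL-Blk cells.

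Compared with vector, BCR-ABL cells read higher in 6 of the 8 receptor genes and lower in 2, and 1 difference, that of Cd48, passed the test. Slamf1 differed most, with a mean 2.32-fold that of vector cells. Cd34, Cd48, Procr, Tek and Tie1 lay between 1.15-fold and 1.62-fold above vector, and Kit and Flt3 lay below it. Over the 8 genes the median log2 difference was 0.47, against 0.02 over all genes, of which 54.3% lay above 0. In all, 24 genes were called higher and 5 lower (176 and 225 without normalization between arrays). Cd48 alone passed at a limma adjusted p under 0.05, which is 1 of 8 receptor genes where 0.145% of all genes passed. At an unadjusted p under 0.05 there were 7 of 8, where 8.64% of all genes passed. Both BCR-ABL arrays lay above both vector arrays for 6 of 8 genes, as for 22.1% of all genes, and below them for 2 of 8, as for 14.9%. The receptors were picked with earlier results of these arrays known, so these shares are a description and no test of the group.

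**Figure D2:**
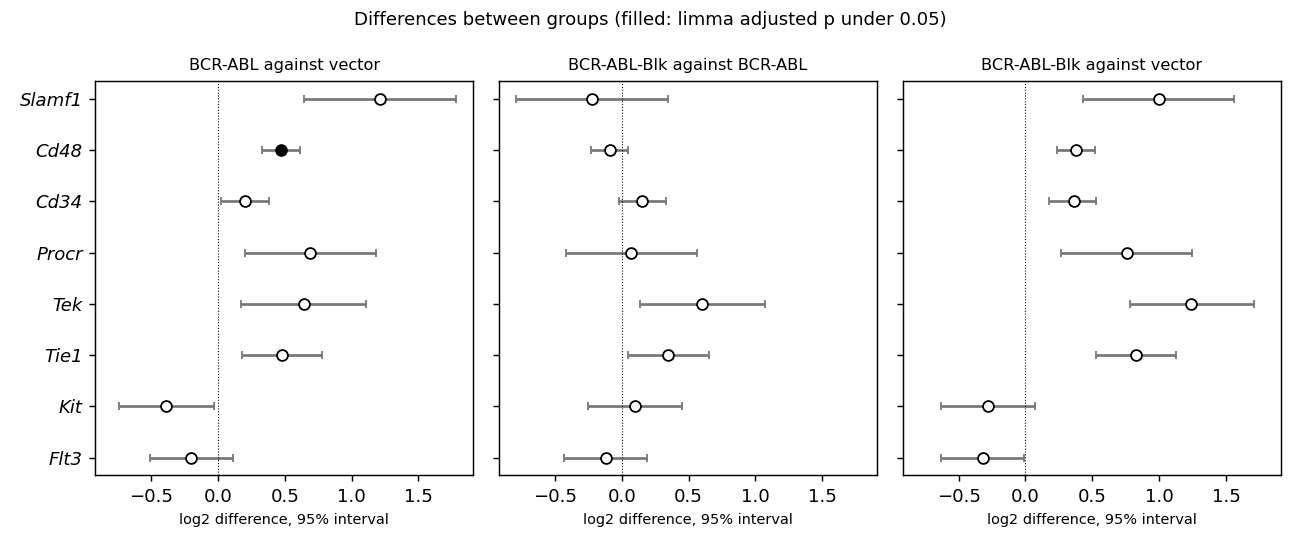
Log2 differences (horizontal axes) of the 8 receptor genes in the 3 comparisons, with 95% intervals from limma; a filled point has an adjusted p under 0.05 over 19938 genes. Cd48 in BCR-ABL against vector (0.47) is the filled point, and the intervals of Kit and Flt3 lie mostly below 0 against vector.

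In BCR-ABL-Blk cells, compared with the same vector arrays, the median over the 8 genes was 0.57 against 0 over all genes, of which 51.2% lay above 0. None of the 8 passed at an adjusted p under 0.05, where 0.140% of all genes did (limma), and 7 of 8 had an unadjusted p under 0.05, where 9.42% did. Cd48, Tek and Tie1 shared the lowest adjusted p, 0.0714. Arrays did not overlap for 6 of 8 genes in the higher direction, as for 19.7% of all genes, and for Flt3 in the lower direction, as for 17.5%. Across the 3 groups at once, the limma F test called 0 of 8, with Cd48 nearest (adjusted p = 0.0791), and 0.0602% of all genes. Both comparisons rest on the 2 vector arrays, and these differed from each other by 0.68 in Slamf1 and 0.58 in Procr but by no more than 0.20 in the other 6 genes. Leaving out single arrays changed calls, but each such fit leaves 1 array in a group. The gap between that group's replicates then no longer enters the standard error. A lower p in such a fit is therefore not firmer evidence. Without vector replicate 1, 2 receptor genes passed against vector in BCR-ABL cells (Cd48 and Procr) and 4 in BCR-ABL-Blk cells (Cd48, Procr, Tek and Tie1). Without vector replicate 2 there were 2 (Slamf1 and Cd48) and 2 (Slamf1 and Tie1), and without either BCR-ABL array 0 passed in BCR-ABL cells. Calls over all genes moved in the same fits. Without vector replicate 1 there were 345 higher and 157 lower in BCR-ABL cells and 338 and 220 in BCR-ABL-Blk cells. Without vector replicate 2 there were 66 and 143, and 57 and 167. Without either BCR-ABL array there were 1 and 0 in BCR-ABL cells.

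Promoter sequences are shown for Cd48, which passed the test, and for Cd34, Tek and Tie1, whose arrays rose in steps over the 3 groups. Each runs 5′ to 3′ along the gene from 250 bases before to 50 bases after its start (RefSeq, GRCm38.p6). Capitals mark letters of motifs bound by known regulators of blood stem cells, on either strand: AGATAA for the GATA factors, GGAAG for the ETS factors and TGTGGT for the RUNX factors.
Cd48, chr1:171681742-171682041, plus strand: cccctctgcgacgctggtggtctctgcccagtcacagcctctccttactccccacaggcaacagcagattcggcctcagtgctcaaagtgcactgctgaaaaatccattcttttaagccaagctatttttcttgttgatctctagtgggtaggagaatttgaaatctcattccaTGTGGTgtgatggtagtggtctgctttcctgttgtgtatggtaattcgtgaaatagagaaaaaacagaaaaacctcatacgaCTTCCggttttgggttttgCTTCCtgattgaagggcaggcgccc
Cd34, chr1:194938571-194938870, plus strand: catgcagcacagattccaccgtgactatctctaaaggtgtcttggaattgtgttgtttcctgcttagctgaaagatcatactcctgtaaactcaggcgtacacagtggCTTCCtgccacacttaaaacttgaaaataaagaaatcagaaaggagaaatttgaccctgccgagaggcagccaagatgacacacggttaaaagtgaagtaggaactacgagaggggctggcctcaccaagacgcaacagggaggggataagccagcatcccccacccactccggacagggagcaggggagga
Tek, chr4:94739039-94739338, plus strand: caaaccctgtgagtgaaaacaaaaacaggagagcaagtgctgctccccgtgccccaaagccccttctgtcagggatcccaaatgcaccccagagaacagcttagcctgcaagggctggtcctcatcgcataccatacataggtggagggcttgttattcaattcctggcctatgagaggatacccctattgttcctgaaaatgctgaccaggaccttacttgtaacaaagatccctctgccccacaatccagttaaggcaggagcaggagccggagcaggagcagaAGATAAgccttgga
Tie1, chr4:118489800-118490099, minus strand: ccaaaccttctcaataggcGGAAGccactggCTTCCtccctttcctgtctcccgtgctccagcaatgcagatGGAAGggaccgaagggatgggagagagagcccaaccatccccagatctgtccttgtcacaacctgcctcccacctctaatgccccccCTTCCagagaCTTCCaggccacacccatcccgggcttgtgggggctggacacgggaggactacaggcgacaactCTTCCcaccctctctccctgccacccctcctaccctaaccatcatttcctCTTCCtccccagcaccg
GGAAG or its complement occurred in the promoters of 7 of 8 receptor genes, Tek being the exception, against 71.4% of 32851 promoters of this length. Tie1 held 7 matches. Among the 8, AGATAA occurred in Tek alone, against 11.2% of all promoters, and TGTGGT in Cd48 alone, against 16.8%. These are matches of the exact letters in a short window. Other forms of the motifs were not searched for, and binding was not measured.

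Among the SLAM receptors, Cd48, which encodes the ligand of the CD244 receptor, gave the tightest values after quantile normalization. It read 11.53 and 11.49 in vector, 11.96 and 12.00 in BCR-ABL and 11.93 and 11.86 in BCR-ABL-Blk cells (log2 expression). The vector arrays were the lowest pair and lay apart from the other 4. Cd48 rose 1.39-fold in BCR-ABL over vector cells (log2 difference 0.47, SE 0.06, limma adjusted p = 0.0493), a call at the edge of the threshold. That call ended under 10 of 15 other settings. With arrays centred on their median the difference was 0.63, but with an SE of 0.2 (limma adjusted p = 0.487). Without an intensity trend the SE was 0.09 (limma adjusted p = 0.184). The call also ended with the replicate block (0.47, limma adjusted p = 0.06) and without BCR-ABL replicate 1 (0.49) or replicate 2 (0.45). BCR-ABL-Blk arrays enter this comparison only through the spread and the normalization. Without BCR-ABL-Blk replicate 1 or 2 the difference stayed at 0.47, and the call also ended. In BCR-ABL-Blk cells Cd48 was 1.30-fold above vector (0.38, SE 0.06, limma adjusted p = 0.0714), not past the test. Without vector replicate 1 this difference was 0.40.

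Slamf1 read 7.12 and 7.80 in vector, 8.47 and 8.88 in BCR-ABL and 8.38 and 8.54 in BCR-ABL-Blk cells. Vector replicate 1 was the lowest, and the groups with BCR-ABL did not overlap with vector. The difference from vector was 1.21 in BCR-ABL cells (SE 0.24, 95% interval 0.64 to 1.78, limma adjusted p = 0.153) and 1.00 in BCR-ABL-Blk cells (SE 0.24, 0.43 to 1.56, adjusted p = 0.213). Neither passed with 2 arrays a group. With vector as 1 array, the differences were 1.57 and 1.35 without vector replicate 2 and 0.87 and 0.65 without vector replicate 1.

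In RefSeq order on chromosome 1, Cd48 and Slamf1 lie in a run of SLAM genes, Cd244a, Ly9, Slamf7, Cd48, Slamf1, Cd84 and Slamf6, and the run did not move as 1 block. Cd244a, the receptor that binds CD48, read 9.33 and 8.80 in vector, 9.82 and 9.79 in BCR-ABL and 9.44 and 9.66 in BCR-ABL-Blk cells. It gave 0.73 in BCR-ABL over vector (SE 0.19, limma adjusted p = 0.285) and passed without vector replicate 1 (0.99, adjusted p = 0.0236) but not without vector replicate 2 (0.48, adjusted p = 0.407). Ly9 (−0.03) and Cd84 (0.06), both lymphoid and myeloid SLAM receptors, gave differences near 0. Slamf6 and Slamf7, receptors of lymphocytes, gave −1.39 and −1.10 with adjusted p of 0.565 and 0.669. Both were high on vector replicate 1 (9.10 and 10.16) and lower on vector replicate 2 (7.02 and 7.96). That array also read higher in B-lineage markers, with a mean level over 10 genes of 9.72 against 8.35 on vector replicate 2 and 7.16 to 7.74 on the arrays with BCR-ABL; the part of such cells in these values was not tested. Over 11 SLAM family and adaptor genes, 0 passed, 5 lay above 0 and 6 below, and the median was −0.03.

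Cd34 read 11.54 and 11.59 in vector, 11.69 and 11.85 in BCR-ABL and 11.97 and 11.87 in BCR-ABL-Blk cells. The groups formed a rising order without overlap, though the gap between the upper BCR-ABL array and the lower BCR-ABL-Blk array was small. Its difference from vector was 0.20 in BCR-ABL cells (SE 0.08, limma adjusted p = 0.507) and 0.36 in BCR-ABL-Blk cells (SE 0.08, limma adjusted p = 0.158), neither past the test. With each array centred on its median, the difference between BCR-ABL-Blk and BCR-ABL in Cd34 was −0.02, so the last step is not seen under that scaling.

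A relative of Cd34 passed the test. Podxl, which encodes podocalyxin, a sialomucin of the CD34 family, read 7.16 and 7.02 in vector, 8.69 and 9.08 in BCR-ABL and 8.93 and 8.74 in BCR-ABL-Blk cells. It rose in BCR-ABL over vector by 1.79 (SE 0.17, limma adjusted p = 0.0187) and in BCR-ABL-Blk over vector by 1.74 (SE 0.17, limma adjusted p = 0.0312). Over 15 other settings, run for Podxl after its values were seen, the first difference ran from 1.58 to 2.0 and the second from 1.65 to 1.89. The first call ended without BCR-ABL replicate 1 (2.0, adjusted p = 0.101), without BCR-ABL replicate 2 (1.58, adjusted p = 0.193) and with all 35557 probe sets tested (adjusted p = 0.247). The second ended under 7 settings, including the fits without any 1 of the 4 arrays with BCR-ABL (1.65 to 1.83, adjusted p from 0.0757 to 0.134). The other 5 measured genes of that list, among them Spn (CD43, −0.12), Cd164 (0.08) and the selectin ligand Selplg (−0.22), did not pass, and the median of the list was −0.10.

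Tek and Tie1, the Tie receptor tyrosine kinases, were lowest in vector, higher in BCR-ABL and highest in BCR-ABL-Blk cells. Tek read 6.45 and 6.37 in vector, 7.04 and 7.06 in BCR-ABL and 7.32 and 7.99 in BCR-ABL-Blk cells. Tie1, an orphan receptor that pairs with TEK, read 7.85 and 7.95, then 8.40 and 8.36, then 8.70 and 8.75. No groups overlapped for either gene, but the BCR-ABL-Blk arrays differed by 0.67 in Tek. A rising order without overlap over the 3 groups was seen in 3 of 8 receptor genes (Cd34, Tek and Tie1) and in 1.80% of all genes; the falling order was seen in 0 of 8 and in 1.77%. Against vector, Tek gave 0.64 in BCR-ABL cells (SE 0.20, limma adjusted p = 0.382) and 1.24, or 2.37-fold, in BCR-ABL-Blk cells (SE 0.20, limma adjusted p = 0.0714). Tie1 gave 0.48 (SE 0.13, limma adjusted p = 0.307) and 0.83 (SE 0.13, limma adjusted p = 0.0714). None of the 4 differences passed. In BCR-ABL-Blk cells Tek ran from 0.91 to 1.58 above vector as single arrays were left out, the highest without BCR-ABL-Blk replicate 1. Tie1 was 0.89 above vector without vector replicate 2. Without vector replicate 1, Tek and Tie1 were 1.28 and 0.78 above it. Tek had a lower mean level than most genes, with 39.9% of genes below it.

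The ligand of TEK followed the same order. Angpt1, the activating angiopoietin, read 10.61 and 10.10 in vector, 11.14 and 11.21 in BCR-ABL and 11.28 and 11.50 in BCR-ABL-Blk cells. It was 0.82 above vector in BCR-ABL cells (SE 0.17, limma adjusted p = 0.156) and 1.03 above it in BCR-ABL-Blk cells (SE 0.17, limma adjusted p = 0.0714), not past the test. Without vector replicate 1 the differences were 1.07 and 1.28, and without vector replicate 2 they were 0.56 and 0.78. Angpt2, the context-dependent antagonist, gave −0.23 in BCR-ABL over vector, Angpt4 −0.07, and Ptprb, the phosphatase that acts on TEK, −0.06. Of 6 measured ligands and partners 0 passed in either comparison with vector.

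Endothelial cells carry Tek, Tie1, Procr and Cd34 too. Of 12 endothelial markers 0 passed against vector in either group, and 10 lay above 0 in BCR-ABL cells with a median of 0.08. Their mean level was 7.32 and 7.44 in vector, 7.56 to 7.60 in BCR-ABL and 7.57 to 7.64 in BCR-ABL-Blk cells. Against vector, Cdh5, Cldn5, Kdr and Plvap gave −0.08, 0.03, 0.03 and −0.05 in BCR-ABL cells. In BCR-ABL-Blk cells they gave 0.07, 0.04, 0.22 and −0.19. Their group means all lay below the median level of 7.50, so small differences there say little. In BCR-ABL and BCR-ABL-Blk cells, Emcn gave 1.25 and 1.08, Vwf 0.41 and 0.71, and Esam 0.20 and 0.34. Egfl7 gave 0.22 and 0.16, Sox17 0.10 and 0.19, and Eng 0.15 and 0.08. Pecam1 gave 0.07 and −0.05, and Nos3 0.06 and 0 (rounded). The lowest limma adjusted p was 0.0845, for Vwf in BCR-ABL-Blk cells. Emcn, Vwf and Esam are expressed by stem cells as well as endothelium. In BCR-ABL-Blk cells 9 of 12 lay above 0 (median 0.12). Arrays there did not overlap for 5 of 12 in the higher direction, against 19.7% of all genes, and for 1 in the lower, against 17.5%. In BCR-ABL cells these were 3 of 12, against 22.1% of all genes, and 0, against 14.9%. The part of endothelial cells in the levels of these receptors was not tested. In bulk samples a change in the share of cells that carry a receptor and a change in RNA per cell cannot be told apart.

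Procr read 7.34 and 6.77 in vector, 7.56 and 7.93 in BCR-ABL and 7.76 and 7.87 in BCR-ABL-Blk cells. The vector arrays were the lowest. The difference from vector was 0.69 in BCR-ABL (SE 0.21, limma adjusted p = 0.363) and 0.76 in BCR-ABL-Blk cells (SE 0.21, limma adjusted p = 0.285), neither past the test. The differences were 0.98 and 1.05 without vector replicate 1, and 0.41 and 0.48 without vector replicate 2.

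F2r, the thrombin receptor PAR1 through which protein C bound to PROCR signals, read 8.91 and 8.40 in vector, 9.89 and 9.99 in BCR-ABL and 9.73 and 9.71 in BCR-ABL-Blk cells. It was 1.28 above vector in BCR-ABL cells (SE 0.18, limma adjusted p = 0.0583) and 1.07 above it in BCR-ABL-Blk cells (SE 0.18, limma adjusted p = 0.0845), short of the threshold. The differences were 1.53 and 1.32 without vector replicate 1, and 1.04 and 0.82 without vector replicate 2. Thbd, thrombomodulin, which switches thrombin to protein C activation, gave −0.55 in BCR-ABL over vector (adjusted p = 0.325). Of 10 measured genes of the protein C and thrombin pathway 0 passed, 5 lay above 0 and 5 below. F2r is also a megakaryocyte marker, as are Vwf, Itga2b and Cd9. Of 8 measured megakaryocyte markers 8 lay above 0 in BCR-ABL (median 0.70) and in BCR-ABL-Blk cells (median 0.55), with 0 called. Their mean level was 8.15 and 7.67 in vector, 8.62 and 8.55 in BCR-ABL, and 8.41 and 8.47 in BCR-ABL-Blk cells. The part of megakaryocyte cells in these values was not tested.

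**Figure D3:**
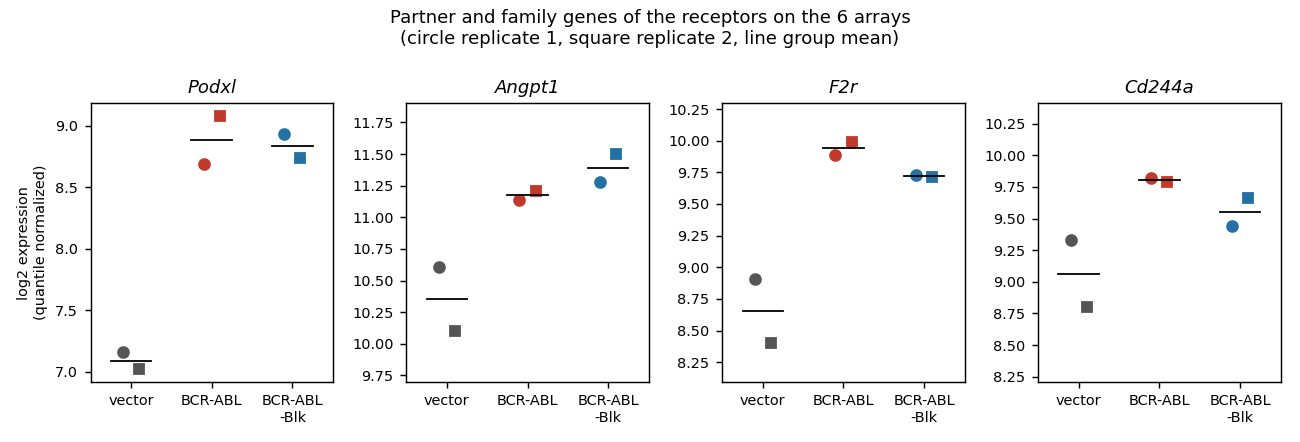
Quantile-normalized log2 expression (vertical axes) of a CD34 relative, Podxl, a TEK ligand, Angpt1, a partner of PROCR, F2r, and the CD48 receptor gene, Cd244a, on the 6 arrays by group; circle, replicate 1, square, replicate 2, line, mean of 2. In each panel both vector arrays lie below the other 4, and Podxl is the gene that passed the test against vector.

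Kit and Flt3, the cytokine receptor kinases, lay below vector in both groups. Kit read 10.71 and 10.92 in vector, 10.43 and 10.43 in BCR-ABL and 10.74 and 10.33 in BCR-ABL-Blk cells. Vector and BCR-ABL arrays did not overlap, whereas BCR-ABL-Blk replicate 1 lay among the vector arrays and replicate 2 was the lowest of all 6. The difference from vector was −0.39 in BCR-ABL (SE 0.15, limma adjusted p = 0.533) and −0.28 in BCR-ABL-Blk cells (SE 0.15, limma adjusted p = 0.638), neither past the test. The sort kept cells with c-Kit protein on the surface, so the RNA was compared within cells already chosen for the product of this gene.

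Flt3 read 10.52 and 10.39 in vector, 10.22 and 10.30 in BCR-ABL and 9.99 and 10.28 in BCR-ABL-Blk cells. Both vector arrays were above the other 4, though close to the upper BCR-ABL array. The difference from vector was −0.20 in BCR-ABL (SE 0.13, limma adjusted p = 0.747) and −0.32 in BCR-ABL-Blk cells (SE 0.13, limma adjusted p = 0.501), neither past the test. Lymphoid and dendritic progenitors carry FLT3, and markers of these lineages lay below vector too. Of 11 dendritic cell markers, Flt3 among them, 10 lay below 0 in BCR-ABL cells (median −0.53), and the mean level was 8.57 and 8.72 on the vector arrays against 7.82 to 8.04 on the other 4. Of 10 B-lineage markers 9 lay below 0 (median −1.64), with 0 called over all genes in either list, and their part in the level of Flt3 was not tested. Mast cells carry KIT, and 10 of 12 mast cell and basophil markers lay above 0 in BCR-ABL cells with 0 called (median 0.74), while Kit lay below it. Their mean level was 7.89 and 7.92 in vector cells, 8.66 and 8.87 in BCR-ABL cells, and 8.99 and 7.89 on BCR-ABL-Blk replicates 1 and 2, and Kit read 10.74 and 10.33 there. Of 7 measured erythroid markers, 6 lay below 0 in BCR-ABL cells (median −0.28) and 6 in BCR-ABL-Blk cells (median −0.46), with 0 called. The part of mast or erythroid cells in the level of Kit was not tested.

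The genes that carry the KIT and FLT3 signal showed no common direction. Of 22 measured, 0 passed against vector in either group, 11 lay above 0 and 11 below in BCR-ABL cells, and the median was −0.03. The genes with the smallest p were the adaptor Shc1 (−0.59), the Src family kinase Fyn (0.71), Rasgrp2 (−0.66) and the Ras pathway inhibitor Spred1 (0.36). Their limma adjusted p ran from 0.194 to 0.485. Kitl, stem cell factor, and Flt3l, the FLT3 ligand, gave 0.09 and 0.30. Of 21 other receptor tyrosine kinases 0 passed, and the median was 0.04. Csf1r, the macrophage colony-stimulating factor receptor and a relative of KIT and FLT3 in sequence, gave −1.05 (limma adjusted p = 0.248), with 8.37 and 8.84 on the vector arrays and 7.21 to 7.90 on the other 4. It is also a monocyte marker, and 9 of 9 measured monocyte and macrophage markers lay below 0 in BCR-ABL cells (median −0.87) with 0 called. In BCR-ABL-Blk cells 1 of these, the chemokine receptor gene Ccr2, fell by 1.38 against vector (SE 0.17, limma adjusted p = 0.049). That call ended under 10 of 15 other settings run for Ccr2 after its values were seen, among them the replicate block (adjusted p = 0.0522) and the fits without any 1 of the 4 arrays with BCR-ABL (adjusted p from 0.0988 to 0.237). Epha7 (−0.35), Pdgfrb (0.54) and Insr (0.23) followed in order of p.

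Relatives of Ly6a lay mostly below vector. Of 10 measured Ly6 family genes 8 lay below 0 in BCR-ABL against vector and 0 passed, with a median of −0.20. Ly6e, the most widely expressed of them, gave −0.32, Ly6i −0.60, Ly6k −0.19 and Ly6d, a lymphoid marker, −0.56 (limma adjusted p from 0.493 to 0.753). Ly6d and Ly6i were highest on vector replicate 1 (8.60 and 6.86), and vector replicate 2 (7.23 and 6.15) lay near the BCR-ABL arrays (7.42 and 7.29 for Ly6d, 5.72 and 6.09 for Ly6i). These genes do not stand for Ly6a itself.

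Added Blk did not move any receptor gene past the test. Of 8, 0 passed between BCR-ABL-Blk and BCR-ABL cells at an adjusted p under 0.05 (limma), as did 0% of all genes, and 2 of 8 (Tek and Tie1) had an unadjusted p under 0.05, where 3.96% of all genes did. Tek differed by 0.60 (SE 0.20, 95% interval 0.14 to 1.07) and Tie1 by 0.35 (SE 0.13, 0.05 to 0.65), each with a limma adjusted p of 0.999. Tek differed by 0.94 without BCR-ABL-Blk replicate 1 and by 0.27 without replicate 2, and Tie1 by 0.32 to 0.63 over 15 other settings. Arrays did not overlap for Cd34, Tek and Tie1 in the higher direction, 3 of 8 against 14.0% of all genes. Cd48 lay lower without overlap, 1 of 8 against 20.0%. For Slamf1, Cd48, Cd34, Flt3, Kit and Procr the 95% intervals covered 0, from −0.79 to 0.35 for Slamf1 and from −0.42 to 0.56 for Procr. With the deposited values left as they were, the median over all genes was 0.25 in this comparison, 0.15 between BCR-ABL-Blk and vector, and −0.11 between BCR-ABL and vector. On that scale 6 of 8 receptor genes passed in BCR-ABL-Blk over vector (Slamf1, Cd48, Cd34, Procr, Tek and Tie1) and 2 in BCR-ABL over vector (Slamf1 and Cd48), while 562 genes in all were called higher and 170 lower in the first of these.

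Other surface markers of stem and progenitor cells lay on both sides of vector. Of 36 measured, 24 lay above 0 and 12 below in BCR-ABL against vector, with a median of 0.10 and 0 called. Arrays did not overlap for 17 of 36 in the higher direction, as for 22.1% of all genes, and for 8 of 36 in the lower, as for 14.9%. Il2ra (CD25) read 6.79 and 5.48 in vector, 8.17 and 8.17 in BCR-ABL and 7.45 and 7.63 in BCR-ABL-Blk cells, a difference of 2.03 in BCR-ABL cells (SE 0.36, limma adjusted p = 0.103). Thy1, a marker of stem cells and T cells, gave 1.21 (SE 0.27, limma adjusted p = 0.192). Cd93 (−0.45) and the integrin Itga2b (CD41, 0.55) also had adjusted p of 0.192 and 0.238. Of the markers of more committed progenitors, the interleukin 7 receptor Il7r gave −1.84 (SE 0.64) and the Fc receptor Fcgr3 −0.64. Neither passed (limma adjusted p = 0.454 and 0.586), and they do not stand for the list. Among genes with a smaller p than these, Cd9 (0.90), Abcg2 (0.55), Itga6 (0.52), Itgb3 (0.48) and Cdcp1 (0.44) lay above 0. Ccr9 (−0.97), Notch1 (−0.56) and Gprc5c (−0.37) lay below it. B-lineage markers were higher on vector replicate 1 (mean level 9.72) than on vector replicate 2 (8.35), and their part in Il7r was not tested.

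**Figure D4:**
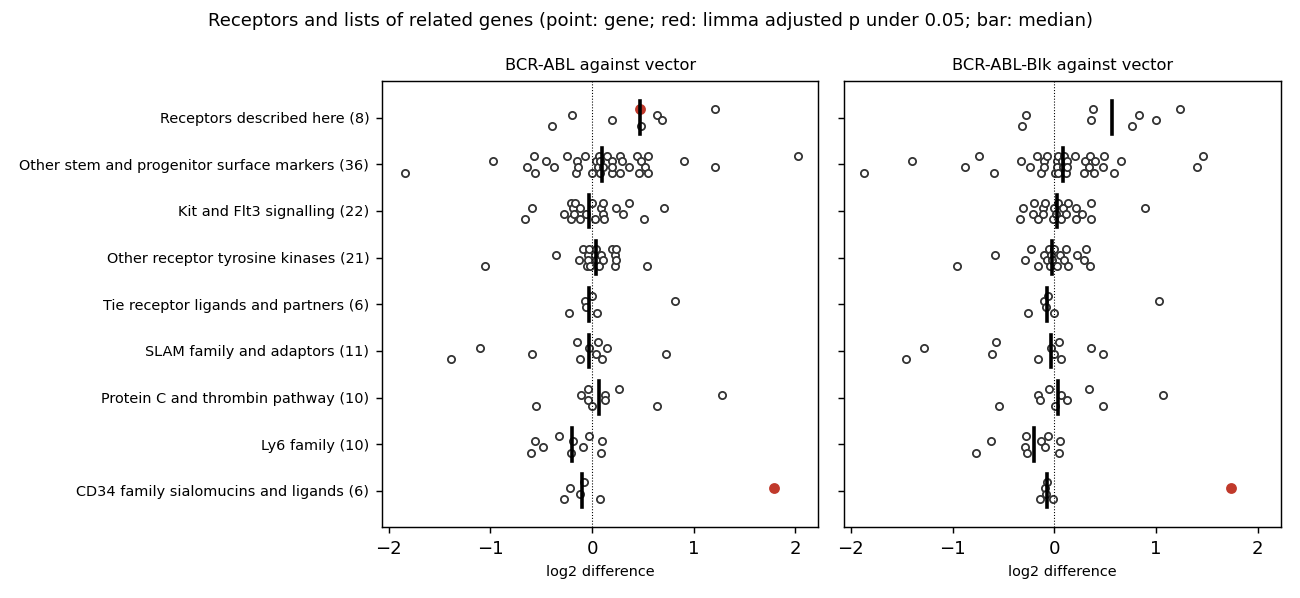
Log2 differences (horizontal axes) of the 8 receptor genes and of 8 lists of related genes, with the number measured in brackets, in BCR-ABL (left) and BCR-ABL-Blk cells (right) against vector; each point is a gene, red points have a limma adjusted p under 0.05 and bars are medians. The medians of the 8 lists lie between −0.20 and 0.10 on both sides, and the red points are Cd48 (left) and Podxl (both).

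Among 837 named genes that varied by at least 1 log2 unit over the arrays and were above the median level of 7.50 in some group, those with the profile most like each receptor were sought by Pearson r over 6 arrays. For Cd48 they were Lrp12 (r = 0.998) and Ctla2a (0.991), for Slamf1 Lipg (0.973) and Il12rb2 (0.949), and for Procr Entpd5 (0.993) and Capn2 (0.991). Zswim7 was nearest to both Tie1 (0.989) and Cd34 (0.963), followed by Arhgef5 for Tie1 (0.97) and Mycn for Cd34 (0.959). For Tek they were Cdk14 (0.983) and Dcakd (0.962), for Kit Lrg1 (0.976) and Alg6 (0.94), and for Flt3 Ctss (0.96) and Hmox1 (0.949). With 6 points in 3 groups such values are high for many genes, and they describe likeness on these arrays alone.

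**Figure D5:**
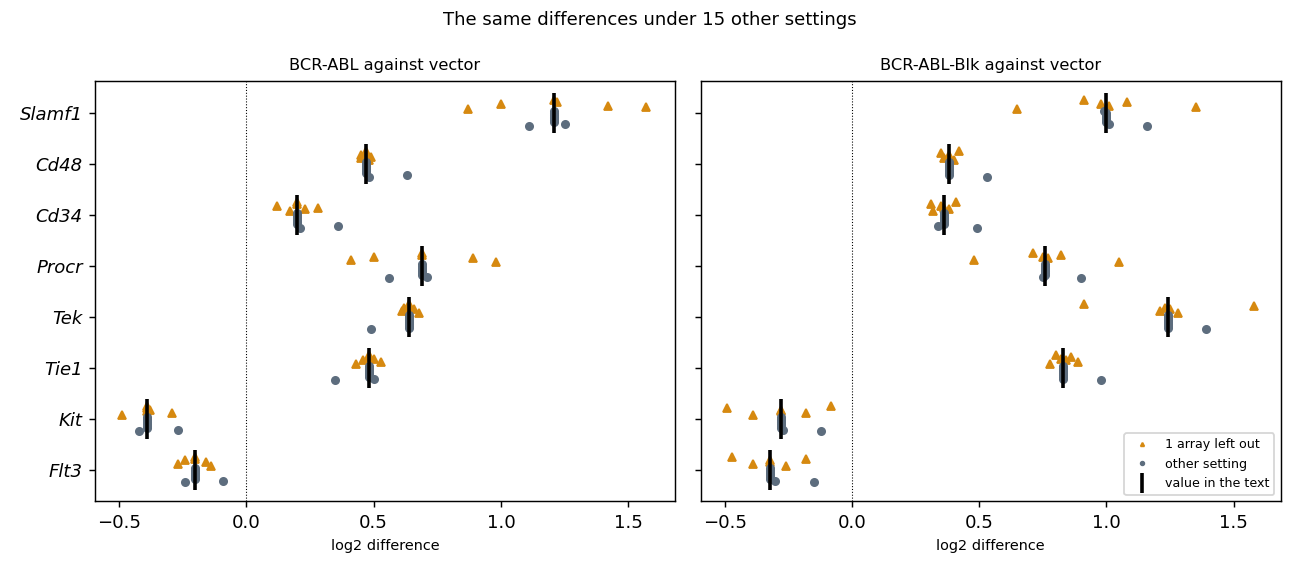
Log2 differences (horizontal axes) from vector of the 8 receptor genes under the settings in the text (black bars), with 1 array left out (triangles) and under other settings (circles), 15 in all. In BCR-ABL (left) and BCR-ABL-Blk cells (right) Slamf1, Cd48, Cd34, Procr, Tek and Tie1 stay above 0 and Kit and Flt3 below it, and leaving out an array moves Slamf1 from 0.87 to 1.57 on the left and Tek from 0.91 to 1.58 on the right. Settings that altered only the error or the genes tested repeat the value of the black bar.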

How the data were processed

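Total RNA of the sorted cells was hybridised to Affymetrix whole-transcript arrays, 1 per sample, and groups and replicate numbers came from the sample titles. The deposited values are log2 values for 35557 probe sets, made by the authors with Affymetrix Expression Console 1.1 and RMA, per the submitters' processing notes; neither its options nor a genome build is given in the sources used here. Their medians ran from 7.01 to 7.52 between arrays, so the arrays were quantile normalized, which mutes shifts common to whole arrays. The platform's probe annotation gave 21789 probe sets 1 symbol, 1621 several and 12147 none. Per gene, the probe set of highest mean level was kept, leaving 19938 genes, with no filter on level. Differences were fitted with limma 3.58.1 in R 4.3.3 (lmFit, eBayes with an intensity trend) over 6 arrays and 3 groups, without a block (3 residual degrees of freedom, prior 4.40). P-values are two-sided and Benjamini-Hochberg adjusted over 19938 genes. Lists of related genes and cell type markers (122 and 89 measured entries) are given as counts and medians. Of each list described, called genes and up to 4 with the smallest p in BCR-ABL against vector are named, with others chosen for their role or after their values were seen; each receptor is given the 2 genes most like it. The receptors and lists were chosen with earlier results of these data known. The number of arrays limits the precision: the median standard error of a difference was 0.129. Figures used Python 3.11.15 and matplotlib 3.10.9. Alternatives covered scaling, prior, block, weights, filters, probe sets and leaving out each array.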

Additional observations from a re-analysis of the deposited data

How the results depend on the processing

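Over 15 alternatives, none of the 8 receptor genes changed direction against vector in either group, and the calls moved more than the values. Part of this was fixed in advance. The fits without an intensity trend, with the block, array weights, level filter or other probe sets, or with only the 4 arrays compared, kept the differences. They altered only the error or the genes tested, so no receptor gene could turn sign under them. Of 360 differences, 326 kept direction and side of the threshold, 16 newly passed, 10 (all Cd48 in BCR-ABL over vector) no longer passed and 8 turned sign. The number of receptor genes called in BCR-ABL over vector, 1 in the text, was 2 without normalization between arrays and 0 with arrays centred on their median, without an intensity trend, with array weights, with all probe sets tested or with only the 4 arrays compared. It ran from 0 to 2 when an array was left out. In BCR-ABL-Blk over vector it was 0 in the text, 6 without normalization between arrays, and from 0 to 4 when an array was left out. With the replicate number as a block, 0 receptor genes passed in BCR-ABL over vector (Cd48 adjusted p = 0.06, limma) and the block changed no other call of the 8. Deviations of same-numbered arrays correlated between −0.06 and 0.08 over genes, so the numbers were not taken as pairs. The signs that turned lay between BCR-ABL-Blk and BCR-ABL, where 0 receptor genes passed under any alternative. Without normalization between arrays the difference was 0.05 for Slamf1, 0.05 for Cd48, 0.09 for Flt3, 0.21 for Podxl and 0 (rounded) for F2r. With arrays centred it was −0.02 for Cd34 and 0 (rounded) for Kit. With each array left out in turn, it ran from −0.27 to 0.02 for Flt3 and from −0.11 to 0.31 for Kit (both turned without BCR-ABL-Blk replicate 1), from −0.12 to 0.25 for Procr (turned without BCR-ABL replicate 1) and from −0.24 to 0.14 for Podxl (turned without BCR-ABL replicate 2 and, at 0.04, without BCR-ABL-Blk replicate 2). Over all genes, calls in BCR-ABL over vector ran from 1 higher and 0 lower (all probe sets tested, or without either BCR-ABL array) to 345 and 157 (without vector replicate 1). In BCR-ABL-Blk over vector they ran from 1 and 0 (all probe sets tested) to 562 and 170 (without normalization between arrays), which also called 66 and 13 between BCR-ABL-Blk and BCR-ABL. The cause of these changes was not tested. How far signals lay above background is not known here, which limits the folds of dim genes such as Tek.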
